A study of Homo sapiens with 12 samples.

Results

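The 53 genes described here act in G2 phase and mitosis. They were chosen by symbol, from a list of genes known for these roles that was drawn up with earlier results of these data known, and all 53 were found among the 26364 genes of the count files. Every one had enough reads to be tested, with 190 to 44503 reads per gene and library. The libraries came from RKO, an established human colon epithelial carcinoma line grown in McCoy's 5A medium, and from derivatives of it with altered PRDM1, a zinc finger repressor known best from plasma cell differentiation. The comparisons address what PRDM1 does to growing colon cancer cells, and the series title names organoids, while these libraries are of the cell line. The 12 libraries of polyadenylated RNA form 6 groups of 2. They are RKO cells overexpressing the alpha form of PRDM1 (alpha), RKO cells overexpressing its beta form (beta), RKO cells overexpressing GFP as their control (GFP), the PRDM1 knockout derivatives KO2 and KO5 made with CRISPR/Cas9, and wild type RKO cells (WT), which carry none of these changes. The labels name neither the promoter of the overexpressed genes nor whether KO2 and KO5 are single clones, nor the position edited in each.

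Cells enter mitosis when CDK1, bound to a cyclin, becomes active, and they leave it when the anaphase-promoting complex marks cyclin B and securin for destruction. In between, condensin and topoisomerase II shape the chromosomes, kinesins and other microtubule proteins build the spindle, and the checkpoint proteins hold back anaphase until each kinetochore is attached. Transcripts of these genes accumulate together in G2 and mitosis and are low in resting cells, a pattern set through CCAAT boxes and so-called CHR elements in their promoters, which are read by NF-Y, by the MuvB complexes and by FOXM1.

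Gene counts per library ranged from 19058967 to 55961821. PRDM1 itself had 11475 and 9681 reads in alpha libraries, 22395 and 28423 in beta libraries, 2 and 6 in GFP libraries, 0 and 1 in KO2, 1 and 1 in KO5 and 4 and 4 in WT. It was thus barely transcribed in WT, and its counts in KO2 and KO5 say little about the edit. Of 9 colon epithelial markers KRT8, KRT18 and CDX2 were present, EPCAM and CDX1 were at 0 in every library, and CDH1, KRT19, KRT20 and VIL1 were at or near 0, so that the labelled epithelial type rests on the first 3. Leukocyte markers were at or near 0, and among fibroblast markers only COL1A1 (5.03 to 10.0 CPM) and PDGFRB (2.25 to 6.51) were above 1 CPM (counts-per-million). Replicate libraries differed by more than sampling noise in each group, so that none was a copy of another. No label tells if replicate libraries go back to separate cultures, so each p-value reflects just the variation among the libraries at hand, possibly technical.

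Levels are given as counts-per-million values (CPM) after TMM scaling, and differences as log2 fold changes ± standard error from edgeR's quasi-likelihood model fitted to all 12858 genes tested. A gene passed at an adjusted p under 0.05, Benjamini-Hochberg over all those genes. Replicates were close, with a median standard deviation between them of 0.0299 on the log2 scale over the members, and small differences could pass. Small shifts are for that reason set beside the behaviour of all genes and beside a trend with GC content described further on. In bulk RNA, fewer cells in G2 or mitosis and less RNA of these genes per cell cannot be told apart.

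Divided by transcript length, the members covered a wide range of levels. CKS2, a small subunit that binds CDK1, was highest with a mean over all libraries of 451 CPM per kilobase. It was followed by HMGB2, a chromatin protein, at 222, by CDC20, the mitotic activator of the anaphase-promoting complex, at 164, and by cyclin B1 (CCNB1) at 155. The kinesins KIF18A, at 9.26, and KIF14, at 8.30, stood near the lower end with the phosphatase CDC25C at 8.95, and HMMR, a spindle protein, was lowest at 3.96 CPM per kilobase. Counts of CKS1B, CKS2, UBE2S, PTTG1 and HMGB2 are less certain than the others, because processed copies of such short transcripts exist and how shared reads were counted is not given in the sources used here.

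**Figure D1:**
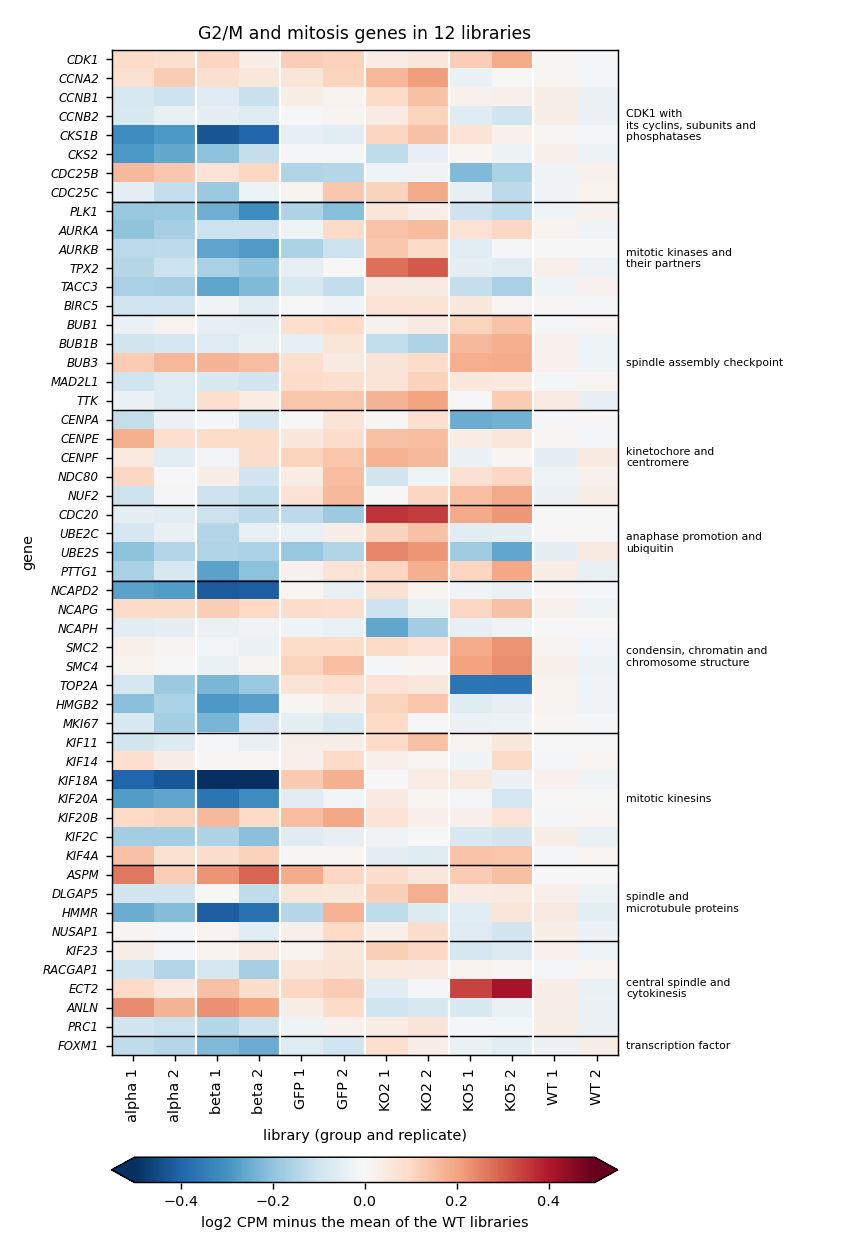
Heat map of the 53 genes, grouped by role and given in rows, in the 12 libraries (columns). Colour is log2 CPM minus the mean of the WT libraries, from blue (lower) to red (higher), with the scale ending at 0.5 either side, which KIF18A in both beta libraries exceeds. Blue fills much of the alpha and beta columns, where the library medians lie between -0.08 and -0.06, KO2 is mostly red (medians 0.07 and 0.07), and KO5 mixes both colours.

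With either form of PRDM1 more of the mitotic genes were lower than in GFP cells, mostly by small amounts. With alpha 25 of the 53, or 47.2%, fell, 5 rose and 23 did not pass, where 16.3% of all genes tested fell and 21.2% rose. With beta 29, or 54.7%, fell, 5 rose and 19 did not pass, against 18% and 22.9% of all genes. The members' median was -0.09 with alpha and -0.10 with beta, and that of all genes 0.01 in both. For 37 members with alpha both libraries lay below both GFP libraries, and for 38 with beta, where 30.7% and 31.6% of all genes did so. Those above without overlap were 6 and 7, against 35% and 36.3% of all genes. Both comparisons use the same GFP libraries, so they are not independent of each other. Leaving out each library in turn, 15 of the 25 falls and 1 of the 5 rises with alpha passed every time, and 20 of the 29 falls and 2 of the 5 rises with beta. Only KIF18A with beta passed a test for a change beyond 1.5-fold, in any comparison of the series.

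**Figure D2:**
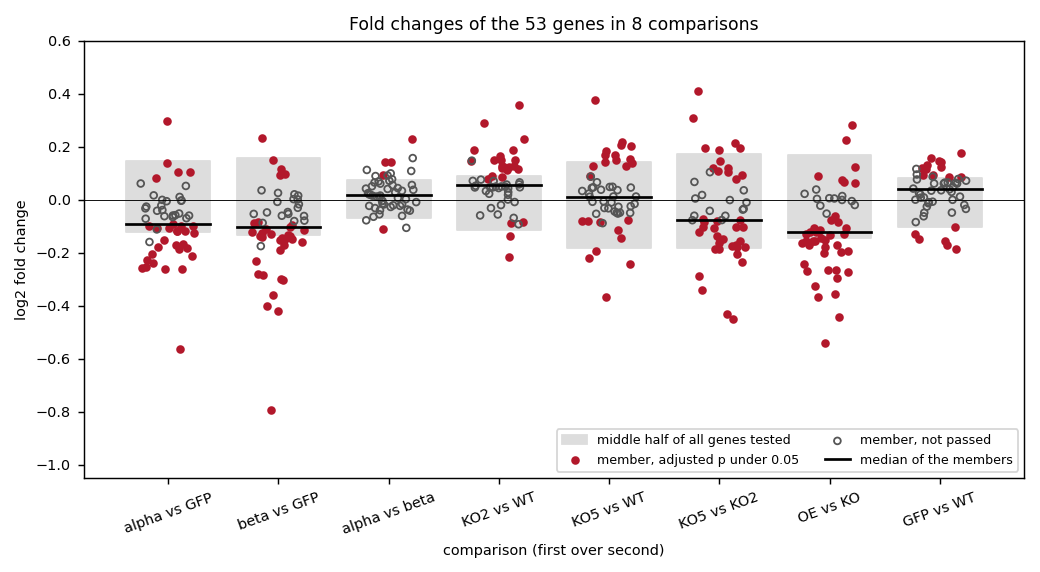
Log2 fold change of each of the 53 genes (points) in 8 comparisons, each named as first group over second. Filled red points passed at adjusted p under 0.05, open points did not, the black bar is the median of the 53 and the grey box spans the interquartile range of all genes tested. The members' median lies at -0.09 for alpha over GFP, -0.10 for beta over GFP, -0.12 for overexpression over knockout and 0.06 for KO2 over WT.

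Promoter sequences were at hand for 44 of the 53 genes, from RefSeq on GRCh38.p14, as windows of 250 bases before to 50 after the annotated start. They were searched on both strands for the CHR element and the CCAAT box. The CHR element was taken as TTTGAA, which reads TTCAAA on the other strand. Its variant TTTAAA, which reads the same on both strands, was counted with it. The CCAAT box was taken as its name spells it, with ATTGG as its form on the other strand. Matches were allowed to overlap. For each member only the first window listed was used, while the background counts every window, so that a gene with several can count more than once. A CHR element was found in 37 of the 44 windows, or 84.1%, against 24% of all 35116 promoters in the table, and a CCAAT box in 32, or 72.7%, against 34.6%. Both were found in 28 windows, or 63.6%, against 9.27%, and a CHR element with 2 or more CCAAT boxes in 18, or 40.9%, against 2.73%.

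The promoters of 5 genes are shown in the stretch before the start, because they belong to members that differ in direction. They are KIF18A and CKS1B, lower with PRDM1, CDC25B and KIF4A, higher with it, and CDC20, highest in KO2. Capitals mark CHR elements and CCAAT boxes. KIF18A lies at chr11:28108157-28108406 on the minus strand, CKS1B at chr1:154974431-154974680, CDC25B at chr20:3786701-3786950, KIF4A at chrX:70289854-70290103 and CDC20 at chr1:43358731-43358980, all 4 on the plus strand.
KIF18A: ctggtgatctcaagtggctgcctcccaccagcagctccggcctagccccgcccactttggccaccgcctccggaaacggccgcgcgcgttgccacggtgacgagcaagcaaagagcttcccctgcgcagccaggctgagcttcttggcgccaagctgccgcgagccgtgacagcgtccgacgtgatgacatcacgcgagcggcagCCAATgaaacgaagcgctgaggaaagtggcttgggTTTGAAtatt
CKS1B: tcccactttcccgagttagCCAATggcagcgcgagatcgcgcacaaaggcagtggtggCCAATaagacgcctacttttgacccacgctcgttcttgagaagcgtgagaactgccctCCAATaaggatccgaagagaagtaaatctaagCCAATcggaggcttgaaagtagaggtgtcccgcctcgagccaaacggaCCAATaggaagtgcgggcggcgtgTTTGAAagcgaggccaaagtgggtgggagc
CDC25B: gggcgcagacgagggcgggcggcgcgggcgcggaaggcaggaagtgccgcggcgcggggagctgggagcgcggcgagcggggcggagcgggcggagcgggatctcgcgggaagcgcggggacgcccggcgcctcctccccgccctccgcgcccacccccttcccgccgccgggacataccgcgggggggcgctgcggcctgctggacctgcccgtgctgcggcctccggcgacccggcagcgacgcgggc
KIF4A: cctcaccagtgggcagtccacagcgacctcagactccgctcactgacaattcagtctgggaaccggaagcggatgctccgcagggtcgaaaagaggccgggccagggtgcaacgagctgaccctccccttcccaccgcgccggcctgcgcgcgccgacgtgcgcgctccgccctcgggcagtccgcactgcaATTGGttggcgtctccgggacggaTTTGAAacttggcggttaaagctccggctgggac
CDC20: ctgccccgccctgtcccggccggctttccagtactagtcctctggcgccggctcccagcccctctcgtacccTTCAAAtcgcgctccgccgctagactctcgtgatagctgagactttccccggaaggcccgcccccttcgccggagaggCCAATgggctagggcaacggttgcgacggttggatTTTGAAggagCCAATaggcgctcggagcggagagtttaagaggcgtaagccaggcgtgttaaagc
KIF18A and KIF4A each held 1 CHR element and 1 CCAAT box in the 300 base window, CKS1B 1 and 5, CDC20 2 and 2, and CDC25B none of either. KIF4A, which rose, and KIF18A, which fell most, thus carry the same pair of motifs.

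Members with and without the motifs are set side by side here. Of the 28 genes with both motifs 14 fell and 2 rose with alpha, with a median of -0.10, and of the 16 without both 5 fell and 2 rose, with a median of -0.05. With beta 16 of the 28 fell and 2 rose (median -0.09), and of the 16 others 8 fell and 2 rose (median -0.12). The order of the medians was opposite for the 2 forms, and no test was made. A motif match is a description of letters and not of a bound site.

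The largest difference belonged to KIF18A, the kinesin that walks to the plus ends of kinetochore microtubules and dampens the movements of aligned chromosomes. It had 27.2 and 26.7 CPM in alpha libraries, 22.6 and 23.3 in beta libraries and 39.3 and 40.5 in GFP libraries. It fell by 0.56 ± 0.06 with alpha (adjusted p = 2.78e-11) and by 0.79 ± 0.06 with beta (adjusted p = 1.46e-15), the second a loss of 42.3%. All 4 overexpressing libraries lay below every other library of the series, since KO2 had 35.9 and 36.8 CPM, KO5 37.1 and 35.1 and WT 36.4 and 35.3. For alpha over beta the difference was 0.23 ± 0.07 (adjusted p = 0.0245).

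Among the other mitotic kinesins KIF20A, which carries the Aurora B complex to the central spindle, had 89.6 and 90.6 CPM with alpha, 84.6 and 87.4 with beta and 105 and 108 with GFP. It fell by 0.24 ± 0.04 and 0.30 ± 0.04, with no overlap between groups. KIF2C, a microtubule depolymerase, fell by 0.12 ± 0.04 with alpha and 0.13 ± 0.04 with beta, and KIF11, the motor that pushes spindle poles apart, by 0.11 ± 0.04 with alpha and stood at -0.05 ± 0.04 with beta, which did not pass. KIF2C with beta ended without the second beta library (adjusted p = 0.0637) and KIF11 with alpha without the first alpha library (0.0678). KIF4A, a chromosome-bound kinesin, went the other way and rose by 0.10 ± 0.04 and 0.09 ± 0.04. Its CPM were 117 and 112 with alpha, 113 and 115 with beta and 107 and 107 with GFP, and its calls were narrow (adjusted p = 0.0221 and 0.0352), since each ended without either GFP library (adjusted p = 0.0697 to 0.144), that with alpha without the first alpha library (0.294) and that with beta without either beta library (0.0611 and 0.206). KIF14 and KIF20B did not pass with either form. Of the 7 kinesins 4 fell and 1 rose with alpha, and 3 fell and 1 rose with beta. Of all genes 16.3% fell and 21.2% rose with alpha, and 18% fell and 22.9% rose with beta.

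CDK1 and its partners gave a mixed picture. CKS1B, the CDK-binding subunit that also helps the SCF ligase destroy p27, had 119 and 121 CPM with alpha, 110 and 112 with beta and 144 and 142 with GFP, and fell by 0.25 ± 0.04 and 0.36 ± 0.04. Its paralog CKS2 had 241 and 246 CPM with alpha, 255 and 270.2 with beta and 291 and 292 with GFP, and fell by 0.26 ± 0.04 and 0.15 ± 0.04. For both genes the overexpressing libraries lay below the GFP and the WT libraries without overlap. CCNB1 had 318 and 314 CPM with alpha, 322 and 312 with beta and 344 and 341 with GFP, and fell by 0.12 ± 0.03 and 0.11 ± 0.03, the second of which did not pass without the second beta library (adjusted p = 0.0807).

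CDK1, the kinase itself, did not pass in either comparison (-0.03 ± 0.04 with alpha and -0.05 ± 0.04 with beta). It had 229.6 and 228 CPM with alpha, 232 and 221 with beta, 235 and 233 with GFP and 216 and 215 in WT, so that the overexpressing libraries lay below the GFP libraries and above the WT libraries. CCNB2 (-0.07 ± 0.04 and -0.06 ± 0.04), CCNA2 and CDC25C did not pass either. CDC25B, one of the phosphatases that remove the inhibitory phosphates from CDK1, was the member that rose most. It had 120.2 and 118 CPM with alpha, 113 and 115 with beta and 96.7 and 97.4 with GFP, higher by 0.30 ± 0.04 (adjusted p = 7.97e-09) and 0.23 ± 0.04 (adjusted p = 1.4e-06). In WT it had 106 and 109 CPM, above GFP and below all 4 overexpressing libraries.

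**Figure D3:**
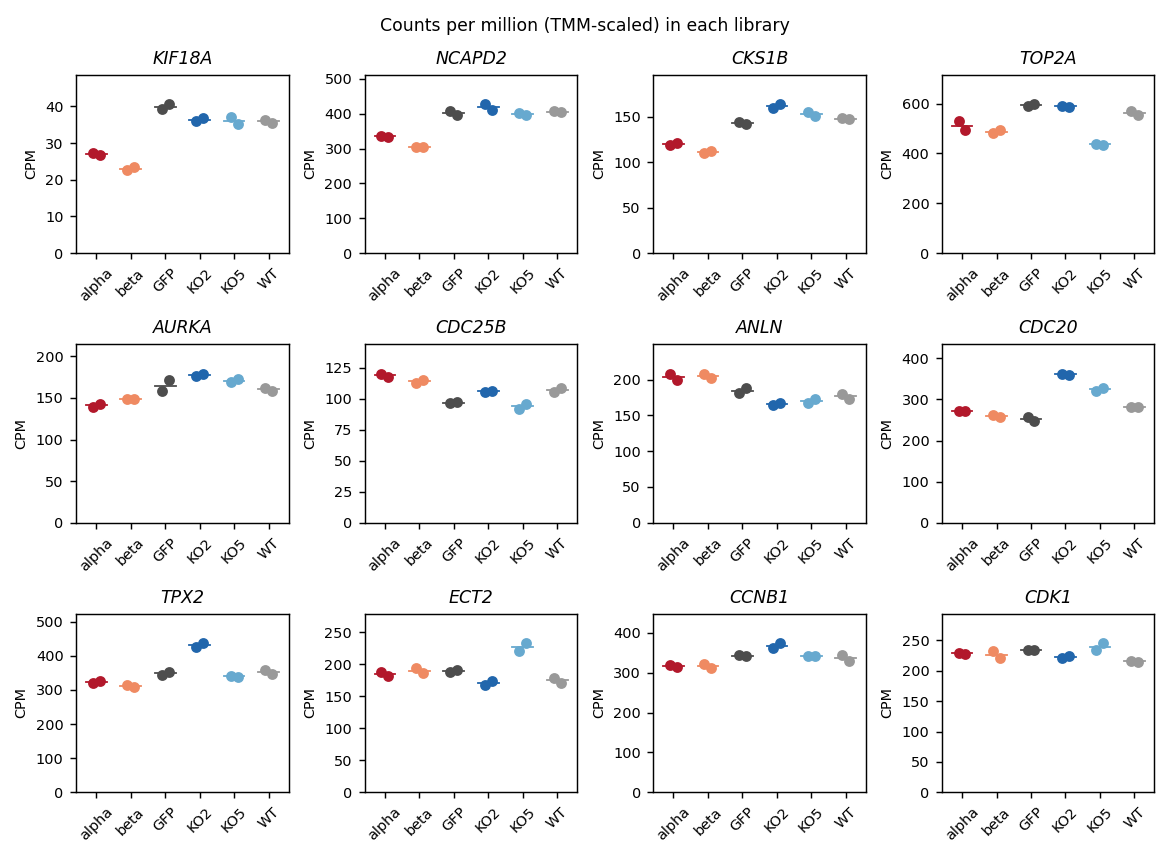
CPM (TMM-scaled, axis from 0) of 12 named genes in each library, 2 points a group in the order alpha, beta, GFP, KO2, KO5 and WT, with a bar at the group mean. KIF18A, NCAPD2 and CKS1B are lowest in the alpha and beta libraries, CDC25B and ANLN highest there, CDC20 and TPX2 are highest in KO2, and TOP2A is lowest and ECT2 highest in KO5.

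Among the mitotic kinases and their partners more members passed with beta than with alpha against GFP, though not against WT. Aurora A (AURKA), the centrosomal kinase, had 139 and 143 CPM with alpha, 149 and 149 with beta and 158 and 172 with GFP, and fell by 0.23 ± 0.04 and 0.15 ± 0.04. TPX2, its activator on the spindle, fell by 0.11 ± 0.03 with alpha, not passing without the first alpha library (adjusted p = 0.0821), and by 0.16 ± 0.03 with beta. Aurora B (AURKB), the kinase of the chromosomal passenger complex, had 104 and 104 CPM with alpha, 95.2 and 93.9 with beta and 102 and 106 with GFP. It fell by 0.14 ± 0.04 with beta, stood at 0.00 ± 0.04 with alpha, and was higher in alpha than in beta by 0.14 ± 0.04 (adjusted p = 0.016), which did not pass when any one of these 4 libraries was left out. PLK1, which acts from mitotic entry to cytokinesis, fell by 0.10 ± 0.04 with beta and stood at 0.00 ± 0.04 with alpha, and the difference between the forms did not pass (0.09 ± 0.04, adjusted p = 0.12). Its fall with beta ended without the second beta library (adjusted p = 0.31) or the first GFP library (0.214). BIRC5, or survivin, fell by 0.09 ± 0.04 with alpha, not passing without either alpha library or the first GFP library (adjusted p = 0.0858 to 0.103), while beta stood at -0.03 ± 0.04 and the forms did not differ at the threshold (-0.06 ± 0.04, adjusted p = 0.324). TACC3, a spindle protein recruited by Aurora A, fell by 0.14 ± 0.04 with beta and stood at -0.06 ± 0.04 with alpha. In all, 3 of the 6 kinase genes and partners fell with alpha and 5 with beta against GFP, and none rose. Of all genes 16.3% and 18% fell there. Against WT, and without the GC offset described further on, all of them fell with alpha and all but BIRC5 with beta. Of all genes 19.3% and 22.1% fell against WT. With the offset TACC3 fell with alpha against GFP too.

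Of the 5 spindle checkpoint genes, MAD2L1, part of the complex that inhibits CDC20, had 189 and 193 CPM with alpha, 192 and 189 with beta and 215 and 214 with GFP, and fell by 0.17 ± 0.04 and 0.17 ± 0.04. BUB1, a checkpoint kinase, fell by 0.10 ± 0.04 and 0.14 ± 0.04, the first not passing without the first alpha library (adjusted p = 0.164). TTK, a further checkpoint kinase, and BUB1B, an inhibitor of the anaphase-promoting complex, fell with alpha (-0.19 ± 0.05 and -0.10 ± 0.04) and did not pass with beta (-0.08 ± 0.05 and -0.06 ± 0.04). Against WT in place of GFP neither BUB1 call passed, at -0.01 ± 0.04 with alpha and -0.04 ± 0.04 with beta. TTK with alpha did not pass either (-0.04 ± 0.05). These WT values are without the GC offset described further on, with which BUB1 with both forms and TTK with alpha fell against GFP too. BUB3, the adaptor that brings BUB1 to kinetochores, rose by 0.08 ± 0.03 with alpha and 0.10 ± 0.03 with beta. BUB1B with alpha ended without either alpha library (adjusted p = 0.0554 and 0.093) or the second GFP library (0.252), and BUB3 without the second GFP library (0.295 with alpha and 0.141 with beta), the second alpha library (0.219) or the first beta library (0.0589).

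At the kinetochore NUF2, a subunit of the NDC80 complex that grips microtubules, fell by 0.18 ± 0.05 with alpha and 0.23 ± 0.05 with beta. CENPF, a large protein of the outer kinetochore, fell by 0.13 ± 0.03 and 0.09 ± 0.03. NDC80 fell with beta (-0.13 ± 0.05) and stood at -0.04 ± 0.05 with alpha, and CENPA and CENPE passed with neither form. Of these calls NUF2 with beta alone passed without each library in turn, and the others ended without 1 to 3 of the 4 libraries (adjusted p = 0.0553 to 0.527). Against WT, CENPF passed with neither form (-0.00 ± 0.03 and 0.04 ± 0.03). NUF2 did not with alpha (-0.06 ± 0.05) and NDC80 did not with beta (-0.04 ± 0.05). Those WT values are without the GC offset. With the offset CENPF with alpha, NUF2 with both forms and NDC80 with beta fell against GFP too, and CENPF with beta did not pass. Of the anaphase genes PTTG1, or securin, the inhibitor of separase, had 101 and 107 CPM with alpha, 93.7 and 97.8 with beta and 114 and 118 with GFP, and fell by 0.17 ± 0.04 with alpha, not passing without the first alpha library (adjusted p = 0.0617), and by 0.28 ± 0.04 with beta. The ubiquitin-conjugating enzymes UBE2C and UBE2S, which serve the anaphase-promoting complex, did not pass against GFP. Against WT and without the GC offset, UBE2S fell by 0.18 ± 0.03 with alpha and 0.16 ± 0.03 with beta, so that it too depended on the control.

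CDC20 also depended on which control was used. It had 273 and 271 CPM with alpha, 262 and 257 with beta, 258 and 249 with GFP and 281 and 283 in WT. Against GFP it rose by 0.10 ± 0.04 with alpha and stood at 0.04 ± 0.04 with beta. Against WT it stood at -0.05 ± 0.03 with alpha, which did not pass, and fell by 0.12 ± 0.03 with beta. With the GC offset described further on it stood at 0.06 ± 0.03 and 0.01 ± 0.03 against GFP, and passed with neither form. The rise with alpha also ended without the second GFP library (adjusted p = 0.16), and no direction is given for CDC20 here.

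Of the 8 genes of chromosome structure 4 fell with alpha and 6 with beta against GFP, and none rose. Of all genes 16.3% and 18% fell and 21.2% and 22.9% rose. NCAPD2, a regulatory subunit of condensin I, had 337 and 334 CPM with alpha, 303 and 304 with beta and 408 and 395 with GFP, and fell by 0.26 ± 0.03 and 0.40 ± 0.03 (adjusted p = 5.95e-10 and 9.42e-16). The 4 overexpressing libraries lay below all 8 others. The further condensin I subunits NCAPG (0.01 ± 0.04 and 0.03 ± 0.04) and NCAPH (-0.02 ± 0.04 and 0.00 ± 0.04) did not pass, and the ATPase core subunits SMC4 and SMC2 stood at -0.12 ± 0.03 and -0.07 ± 0.04 with alpha and at -0.14 ± 0.03 and -0.11 ± 0.04 with beta, all passing but SMC2 with alpha. Against WT, SMC4 (0.01 ± 0.03 and -0.01 ± 0.03, with alpha first) and SMC2 (0.02 ± 0.03 and -0.02 ± 0.03) passed with neither form. NCAPG was higher than WT with both forms (0.10 ± 0.04 and 0.11 ± 0.04). Those values are without the GC offset, with which SMC4 with both forms and SMC2 with beta fell against GFP too.

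TOP2A, the topoisomerase that untangles sister chromatids, had 530 and 494 CPM with alpha, 480.3 and 494 with beta and 591 and 597 with GFP, and fell by 0.21 ± 0.03 and 0.28 ± 0.03. HMGB2 had 377 and 391 CPM with alpha, 358 and 362 with beta and 438 and 446 with GFP, and fell by 0.20 ± 0.03 and 0.30 ± 0.03. In both genes the groups did not overlap. MKI67, the Ki-67 proliferation antigen, had 750.2 and 703 CPM with alpha, 672 and 737 with beta and 764 and 749 with GFP. It stood at -0.06 ± 0.04 with alpha, where groups overlapped, and fell by 0.10 ± 0.04 with beta, which passed narrowly (adjusted p = 0.0324) and not without the first beta library (adjusted p = 0.498) or either GFP library (0.203 and 0.0841).

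Of the spindle proteins HMMR fell by 0.26 ± 0.10 and 0.42 ± 0.10, but its GFP libraries lay apart (12 and 14.9 CPM) while alpha had 11.2 and 11.4 and beta 9.96 and 10.2. Without the second GFP library HMMR stood at -0.10 with alpha (adjusted p = 0.554) and -0.26 with beta (adjusted p = 0.0778), and with alpha it also ended without either alpha library (0.141 and 0.0764). DLGAP5, a spindle microtubule stabiliser, fell by 0.15 ± 0.04 with alpha and by 0.13 ± 0.04 with beta, the second not passing without the second beta library (adjusted p = 0.411). NUSAP1, a microtubule-bundling protein, fell by 0.08 ± 0.04 with beta, narrowly (adjusted p = 0.0437, and 0.457 and 0.255 without the second beta or the second GFP library), and stood at -0.06 ± 0.04 with alpha. Against WT, DLGAP5 passed with neither form (-0.09 ± 0.04 and -0.07 ± 0.04) and NUSAP1 did not with beta (-0.02 ± 0.04). Those values are without the GC offset, with which DLGAP5 with both forms and NUSAP1 with beta fell against GFP too. ASPM, a spindle pole protein, rose with beta (0.12 ± 0.04), not passing without the second beta or the second GFP library (adjusted p = 0.213 and 0.286), and stood at 0.05 ± 0.04 with alpha.

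The cytokinesis genes split. RACGAP1, a subunit of centralspindlin, had 137 and 133 CPM with alpha, 138 and 131 with beta and 153 and 154 with GFP, and fell by 0.18 ± 0.04 and 0.19 ± 0.04, and PRC1, which bundles the central spindle, by 0.10 ± 0.04 and 0.12 ± 0.04. PRC1 with alpha ended without the second alpha or the second GFP library (adjusted p = 0.0678 and 0.0593). ANLN, the anillin scaffold of the contractile ring, had 208 and 199 CPM with alpha, 207 and 203 with beta and 181 and 189 with GFP, and rose by 0.14 ± 0.04 and 0.15 ± 0.04 without overlap, the first just failing without the first alpha library (adjusted p = 0.0525). KIF23 and ECT2 did not pass with either form. FOXM1, the transcription factor that drives many of these genes, had 166 and 164 CPM with alpha, 156 and 153 with beta and 174 and 169 with GFP, fell by 0.15 ± 0.04 with beta and stood at -0.05 ± 0.04 with alpha, and the difference between the forms was 0.10 ± 0.04 (adjusted p = 0.0815).

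Taken against WT in place of GFP, 25 members fell and 10 rose with alpha, and 24 fell and 9 rose with beta, where 19.3% and 22.1% of all genes fell and 22.1% and 24.7% rose. KIF18A then stood at -0.41 ± 0.06 and -0.64 ± 0.06, NCAPD2 at -0.27 ± 0.03 and -0.42 ± 0.03, CKS1B at -0.30 ± 0.04 and -0.41 ± 0.04 and CDC25B at 0.15 ± 0.04 and 0.09 ± 0.04, all of which passed. The genes behind these counts were not all those found against GFP. The falls of BUB1, CENPF, SMC4 and DLGAP5 with both forms, of TTK and NUF2 with alpha, and of NDC80, SMC2 and NUSAP1 with beta did not pass against WT. PLK1 (-0.19 ± 0.04), AURKB (-0.13 ± 0.04), FOXM1 (-0.14 ± 0.04), TACC3 (-0.17 ± 0.04) and MKI67 (-0.12 ± 0.04) fell with alpha against WT and not against GFP, as did UBE2S with both forms and CDC20 with beta. CENPE, NCAPG and KIF20B with both forms, CDK1 (0.09 ± 0.03), CCNA2 and ASPM with alpha and ECT2 with beta were higher than WT. None of these calls had passed against GFP. All values against WT are without the GC offset described further on, and GFP over WT followed GC content (Spearman -0.67 over all genes). The part of GC content in the genes that differ between the controls was not tested. With the offset TACC3 (-0.10 ± 0.03) and FOXM1 (-0.08 ± 0.03) fell and CENPE (0.10 ± 0.04) rose with alpha against GFP.

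Alpha and beta differed directly in few members. For alpha over beta 4 were higher, 1 was lower and 48 did not pass, against 3.45% and 2.79% of all genes. Besides KIF18A and AURKB, NCAPD2 (0.14 ± 0.03, adjusted p = 0.00126) and HMGB2 (0.09 ± 0.03, adjusted p = 0.0477) were higher in alpha, and CKS2 (-0.11 ± 0.04, adjusted p = 0.037) was lower. Libraries of the forms did not overlap for 17 members higher in alpha and 8 lower, where 24.4% and 24.5% of all genes did not overlap. Of the 5 calls NCAPD2 alone passed without each library in turn, KIF18A, AURKB and HMGB2 ended without any one of the 4 (adjusted p = 0.0543 to 0.401), and CKS2 ended without either alpha library or the second beta library (0.0932 to 0.51). With the GC offset described further on, 5 members were higher and 0 lower, against 3.88% and 2.77% of all genes. PRDM1 had more reads in the beta than in the alpha libraries, as given above, and the part of that in these values was not tested.

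In KO2 more members rose than fell against WT. Of the 53, 20 rose (37.7%), 4 fell and 29 did not pass, where 15.1% of all genes rose and 14.9% fell, and the median was 0.06 against 0.00 for all genes. In 37 members both KO2 libraries lay above both WT libraries and in 7 below, where 31.8% and 32.4% of all genes did so. The genes that fell most with alpha over GFP did not all rise in KO2. CKS1B rose (0.13) and CKS2 fell (-0.08), while KIF18A (0.02), NCAPD2 (0.05), KIF20A (0.03) and HMMR (-0.09) did not pass. The anaphase genes stood out, as all 4 rose. CDC20 had 362 and 359.5 CPM in KO2 and 281 and 283 in WT, higher by 0.36 ± 0.03 (adjusted p = 1.82e-14). UBE2S had 306 and 300 CPM in KO2 and 250 and 266 in WT, higher by 0.23 ± 0.03, and PTTG1 and UBE2C rose by 0.15 ± 0.04 and 0.13 ± 0.04. Both KO2 libraries were the highest of the series for CDC20 and UBE2S.

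TPX2 had 427 and 436 CPM in KO2 and 359.8 and 347 in WT, a rise of 0.29 ± 0.03 (adjusted p = 1.91e-11), and its partner AURKA rose by 0.15 ± 0.03. AURKB rose by 0.12 ± 0.04, while PLK1 stood at 0.05 ± 0.03 and did not pass. The cyclins CCNA2 and CCNB1 rose by 0.19 ± 0.03 and 0.12 ± 0.03, CCNB2 stood at 0.08 ± 0.03 and CDK1 at 0.05 ± 0.03, neither of which passed. The checkpoint kinase TTK and the kinetochore protein CENPF rose by 0.19 ± 0.04 and 0.17 ± 0.03. Without each library in turn 12 of the 20 rises passed every time, and PTTG1, UBE2C and AURKB were among those that did not (adjusted p = 0.0629 to 0.09).

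The 4 falls in KO2 were small. NCAPH, the kleisin subunit that closes the condensin I ring, had 98.1 and 104 CPM in KO2 and 118 and 117 in WT, lower by 0.22 ± 0.04, and both KO2 libraries lay below every other library. BUB1B had 223 and 219 CPM in KO2 and 247 and 239.6 in WT, and fell by 0.14 ± 0.03. ANLN and CKS2 fell by 0.09 ± 0.03 and 0.08 ± 0.03, and both calls ended without the first KO2 library (adjusted p = 0.15 and 0.457) or the first WT library (0.282 and 0.28). TOP2A (0.07 ± 0.03), MKI67 (0.05 ± 0.04) and FOXM1 (0.06 ± 0.03) did not pass.

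In KO5 the members moved both ways. Against WT 14 rose (26.4%), 10 fell (18.9%) and 29 did not pass, where 25.2% of all genes rose and 25.9% fell, and 22 lay above WT and 21 below it without overlap, where 36.7% and 38% of all genes did. By adjusted p the share of members that rose lay near that of all genes, and the share that fell lay below it. The median was 0.01. ECT2, the exchange factor that activates RhoA for cytokinesis, had 221 and 233 CPM in KO5 and 179 and 171 in WT, higher by 0.38 ± 0.03 (adjusted p = 1.56e-13). TOP2A had 437 and 436 CPM in KO5 and 570 and 555 in WT, lower by 0.37 ± 0.03 (adjusted p = 2.08e-14). The KO5 libraries were the highest of the series for ECT2 and the lowest for TOP2A.

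CDC20 had 322 and 327 CPM in KO5, higher than WT by 0.20 ± 0.03 (adjusted p = 8.35e-08). The checkpoint genes BUB3 and BUB1B rose by 0.18 ± 0.03 and 0.17 ± 0.03, the condensin cores SMC4 and SMC2 by 0.22 ± 0.03 and 0.21 ± 0.03, and CDK1 by 0.15 ± 0.03. AURKA rose by 0.09 ± 0.03, not passing without the second KO5 or the second WT library (adjusted p = 0.159 and 0.176). CENPA, the histone H3 variant that marks centromeres, had 30.3 and 30.6 CPM in KO5 and 35.9 and 36.2 in WT, lower by 0.24 ± 0.05. UBE2S fell by 0.22 ± 0.03, CDC25B by 0.19 ± 0.04, TACC3 by 0.14 ± 0.03, PLK1 by 0.12 ± 0.03 and CCNB2 by 0.08 ± 0.04. PLK1 did not pass without the second WT library (adjusted p = 0.0616), nor CCNB2 without either KO5 library or the first WT library (0.0508 to 0.291). CCNB1, AURKB, FOXM1 and MKI67 did not pass.

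Fold changes in KO5 and in GFP cells followed the GC content of the transcript across all genes, which bears on small shifts of the members. Mitotic transcripts are poor in GC, with a median of 43.2% (34.2% to 59.3%) against 48.8% over all genes tested, and 40 of the 53 lie below the all-gene value. A value was had for all 53 members and for 94.3% of genes tested. Across 12122 genes the Spearman correlation of the log2 fold change with GC content was -0.67 for GFP over WT, -0.52 for KO5 over WT and -0.42 for KO5 over KO2, as a description over genes of the same libraries. It was 0.18 for alpha over GFP, 0.14 for beta over GFP, 0.08 for overexpression over knockout and -0.07 for KO2 over WT. Among the 53 it was -0.84 for GFP over WT and -0.51 for KO5 over WT. What made the trend was not tested.

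**Figure D4:**
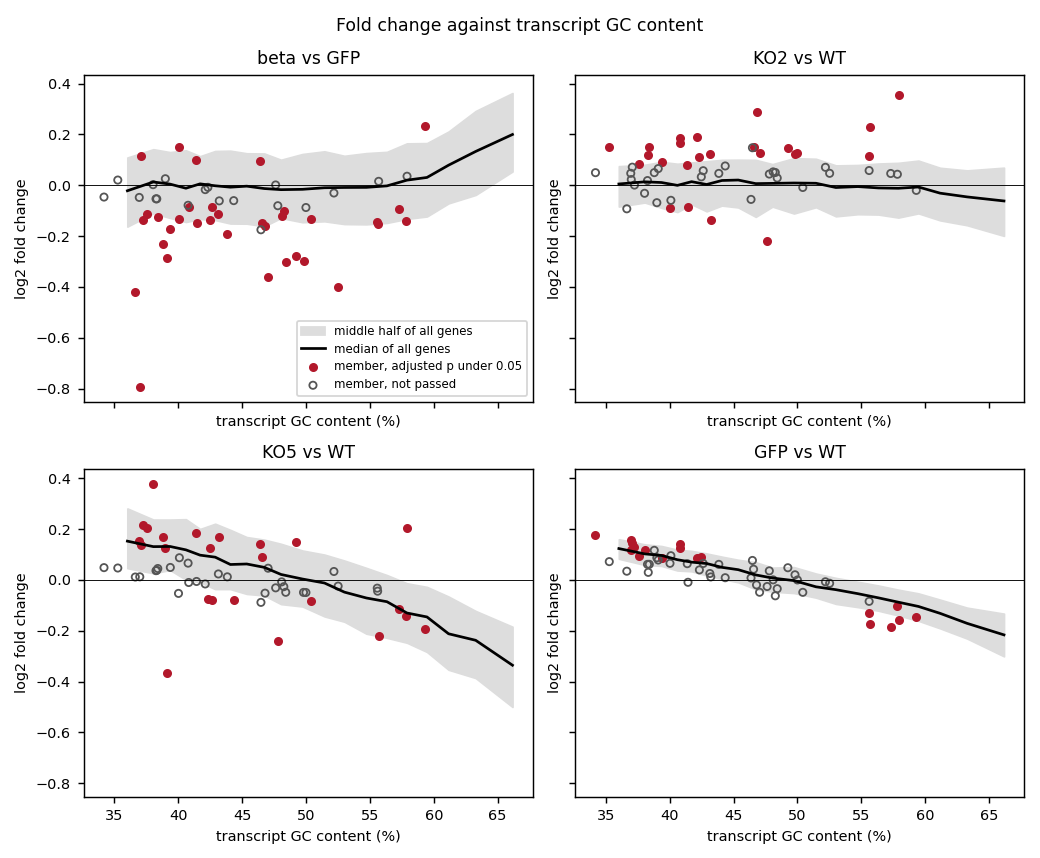
Log2 fold change (vertical) of the 53 genes against transcript GC content in percent (horizontal) for beta over GFP, KO2 over WT, KO5 over WT and GFP over WT. The line is the median and the grey band the interquartile range of all genes in 20 GC bins, red points passed and open points did not. In GFP over WT the members lie along the falling line of all genes, in KO5 over WT most lie near or under it, and in beta over GFP the line is flat over the range of the members and most lie under it.

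With the trend of each library entered as an offset, the KO5 pattern changed. Then 7 members were higher and 19 lower in KO5 than in WT, against 20.7% and 19.9% of all genes, and the median moved to -0.05. CDC20 (0.33 ± 0.03), ECT2 (0.24 ± 0.03) and BUB1B (0.09 ± 0.03) were higher with the offset too, and TOP2A (-0.49 ± 0.03), CENPA (-0.27 ± 0.05) and UBE2S (-0.13 ± 0.03) lower. CDK1 (0.00 ± 0.03), SMC2 (0.06 ± 0.03), CDC25B (-0.04 ± 0.04), TACC3 (-0.02 ± 0.03) and PLK1 (0.00 ± 0.03) did not pass with it. In all 10 calls were lost and 12 gained, the gained ones including the kinesins KIF18A (-0.14 ± 0.05), KIF20B (-0.13 ± 0.04) and KIF11 (-0.10 ± 0.03).

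The comparisons with GFP changed little with the offset. With alpha 26 members were lower and 5 higher than in GFP, and with beta 27 lower and 5 higher, against 17.5% and 20% of all genes lower and 19% and 20.5% higher. Of the 25 falls with alpha 24 passed with the offset too, as did 27 of the 29 with beta. The falls that did not were HMMR with alpha (-0.23 ± 0.09) and CENPF (-0.09 ± 0.04) and MKI67 (-0.09 ± 0.04) with beta. The rise of CDC20 with alpha did not pass with it either. In KO2 against WT 20 were higher and 5 lower, against 16.4% and 16%, and all 20 rises passed both ways.

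GFP cells, set against WT, had 12 members higher and 6 lower, against 8.81% and 10.2% of all genes, with 23 above and 12 below without overlap, against 28.3% and 29.3%. PLK1 was lower by 0.18 ± 0.04, UBE2S by 0.17 ± 0.03, CDC20 by 0.16 ± 0.03, CDC25B by 0.15 ± 0.04, AURKB by 0.13 ± 0.04 and TACC3 by 0.10 ± 0.04. KIF20B was higher by 0.17 ± 0.04, KIF18A by 0.16 ± 0.05, ASPM by 0.14 ± 0.04 and CDK1 by 0.12 ± 0.03. Of the 12 rises 1, KIF20B, and of the 6 falls 2, PLK1 and CDC20, passed without each library in turn, and TTK, KIF18A and TACC3 ended without the second GFP or the second WT library (adjusted p = 0.0893 to 0.275). None of the 18 held with the GC offset, where 0.607% and 0.482% of all genes were higher and lower. KIF18A stood at 0.05 ± 0.05 with the offset (adjusted p = 0.768).

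The 2 knockout derivatives differed from each other in most members. For KO5 over KO2 13 were higher, 26 lower and 14 did not pass, against 26.9% and 28.1% of all genes, and 16 lay above and 33 below without overlap, against 37.6% and 39.1%. The median was -0.08. UBE2S had 228 and 215 CPM in KO5 and 306 and 300 in KO2, lower by 0.45 ± 0.03 (adjusted p = 2.77e-16), and TOP2A had 437 and 436 in KO5 and 592 and 585 in KO2, lower by 0.43 ± 0.03 (adjusted p = 5.29e-17). TPX2 was lower by 0.34 ± 0.03, CENPA by 0.29 ± 0.05, CDC25C by 0.24 ± 0.07 and CCNA2 by 0.20 ± 0.03. These differences separate derivatives that carry the same labelled knockout.

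Higher in KO5 than in KO2 were ECT2, with 221 and 233 CPM in KO5 and 168 and 174 in KO2 (0.41 ± 0.03), and BUB1B, with 272 and 275 in KO5 and 223 and 219 in KO2 (0.31 ± 0.03). SMC4, KIF4A, NCAPG and NCAPH followed at 0.22 ± 0.03, 0.20 ± 0.04, 0.20 ± 0.04 and 0.19 ± 0.04. With the GC offset 6 members were higher and 28 lower, against 25.1% and 24.9%, and CDK1, higher by 0.11 ± 0.03 without it, stood at -0.03 ± 0.03. SMC4 and NCAPG then stood at 0.08 ± 0.03 and 0.08 ± 0.03, KIF4A at 0.16 ± 0.04 and NCAPH at 0.17 ± 0.04. All 6 of CDC20, PLK1, AURKB, FOXM1, CCNB1 and CCNB2 were lower in KO5 than in KO2, by 0.10 to 0.16, but with the offset CDC20, PLK1, AURKB and FOXM1 did not pass. Without each library in turn 8 of the 13 rises and 16 of the 26 falls passed every time, and CCNB1, FOXM1, CDK1 and CDC25C were among those that did not (adjusted p = 0.0555 to 0.118).

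Overexpression as a whole, the mean of alpha and beta over the mean of KO2 and KO5, is near to the contrast of the authors' tables, which set each form against knockout. It gave 35 members lower, 7 higher and 11 not passing, against 27.7% of all genes lower and 31% higher, with a median of -0.12. All 4 overexpressing libraries lay below all 4 knockout libraries for 25 members and above them for 3, against 15.7% and 18.2% of all genes. KIF18A was lower by 0.54 ± 0.04, CKS1B by 0.44 ± 0.03, CDC20 by 0.37 ± 0.02 (adjusted p = 2.99e-20), NCAPD2 by 0.36 ± 0.02, PTTG1 by 0.32 ± 0.03 and KIF20A by 0.30 ± 0.03. All 6 mitotic kinase genes and partners and all 4 anaphase genes were lower against this mean of the derivatives, which were not alike. UBE2S had 224 and 233 CPM with alpha and 232 and 231 with beta, beside 228 and 215 in KO5 and 306 and 300 in KO2. UBE2C had 94.4 and 97.5 CPM with alpha and 90.3 and 97.3 with beta, beside 96.2 and 96.9 in KO5 and 108 and 111 in KO2. CDC20, as given above, did not fall against GFP with either form, and its values in KO2 and KO5 were above those of GFP and WT.

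Higher in overexpression than in knockout were ANLN (0.28 ± 0.03), CDC25B (0.22 ± 0.03), ASPM (0.12 ± 0.03), NCAPH (0.09 ± 0.03), NCAPG (0.08 ± 0.03), KIF20B (0.07 ± 0.03) and KIF4A (0.06 ± 0.03). Of these ANLN, CDC25B and ASPM passed without each library in turn, NCAPG and NCAPH did not without the first KO2 library (adjusted p = 0.128 and 0.1), and KIF20B and KIF4A did not without 4 and 6 of the 8 libraries. CDK1 (-0.02 ± 0.02), CCNB2 (-0.05 ± 0.03) and TOP2A (-0.02 ± 0.02) did not pass, and for TOP2A KO5 lay below and KO2 above the overexpressing libraries. With the GC offset 34 were lower and 7 higher, against 29.7% and 29.8%. This contrast shares the alpha and beta libraries with the comparisons to GFP and is not a second experiment.

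The authors' deposited table of alpha against knockout had 15 members lower and 2 higher at adjusted p under 0.05, against 7.42% and 9.02% of its genes, and their deposited table of beta against knockout 18 lower and 1 higher, against 8.89% and 10.6%. In the authors' deposited tables KIF18A stood at -0.41 with alpha and -0.63 with beta, CKS1B at -0.39 and -0.49 and NCAPD2 at -0.29 and -0.43. CDC20 stood at -0.33 and -0.39 in the authors' deposited tables, and ANLN at 0.26 and 0.28. CDC25B passed in the authors' deposited table of alpha alone, at 0.23. UBE2S, UBE2C, TPX2 and TACC3 passed in neither of the authors' deposited tables.

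Other genes of mitosis were counted in the same comparisons. Of 108 genes on 6 further lists (the anaphase-promoting complex, cohesin, other condensin subunits, other kinetochore genes, other mitotic kinases, and other kinesins and spindle genes), 32 fell and 11 rose with alpha against GFP, with a median of -0.05, and 37 fell and 16 rose with beta, with a median of -0.04. In KO2 against WT 30 rose and 8 fell. The shares of all genes that fell and rose in these comparisons are those given for the members above. The 26 other kinesins and spindle genes had 12 falls and 0 rises with alpha and 13 falls and 1 rise with beta, against the same background shares. The remaining lists shifted less. Of 33 other kinetochore genes 5 (15.15%) fell and 3 rose with alpha, and 7 (21.2%) and 5 with beta. These falls lie near the 16.3% and 18% of all genes. The 13 cohesin genes had 3 falls and 2 rises with alpha and 3 and 3 with beta, with medians of 0.01 and 0.01. The 17 other mitotic kinases had 6 falls and 3 rises with alpha and 7 and 3 with beta, with medians of 0.00 and -0.02. CEP55, needed for the final cut of cytokinesis, fell by 0.34 ± 0.05 with alpha and 0.32 ± 0.05 with beta, PSRC1 by 0.33 ± 0.05 and 0.45 ± 0.06 and CIT, the citron kinase, by 0.27 ± 0.04 and 0.40 ± 0.05. PBK, a mitotic kinase, fell by 0.43 ± 0.04 and 0.42 ± 0.04, and separase (ESPL1) by 0.18 ± 0.04 and 0.32 ± 0.04.

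Of 22 regulators of such genes (the DREAM, MuvB and E2F proteins and their partners) 4 (18.2%) rose and 3 (13.6%) fell with alpha against GFP, where 21.2% of all genes rose and 16.3% fell. With beta 3 (13.6%) rose and 5 (22.7%) fell, against 22.9% and 18%, in KO2 against WT 4 (18.2%) rose and 0 fell, against 15.1% and 14.9%, and in KO5 against WT 8 (36.4%) rose and 5 (22.7%) fell, against 25.2% and 25.9%. With alpha both shares lie near those of all genes. CDKN1A, the CDK inhibitor p21, rose by 0.69 ± 0.04 with alpha and 0.69 ± 0.04 with beta over GFP, and E2F7, an E2F repressor, by 0.41 ± 0.04 and 0.37 ± 0.04, while E2F2 fell by 0.42 ± 0.06 and 0.55 ± 0.06. CDKN1A also rose in KO5 (0.54 ± 0.04) and KO2 (0.19 ± 0.04) over WT. MYBL2, a partner of MuvB in G2, fell by 0.37 ± 0.04 in KO5 against WT. NFYA, a subunit of the CCAAT-binding NF-Y, rose by 0.25 ± 0.04 in KO2 against WT. The counts and values of these regulators are without the GC offset, and KO5 over WT followed GC content across all genes, as given above.

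The 41 G1/S genes, which act before and during DNA replication, were set beside the mitotic genes. In KO5 against WT 20 of the 41 fell and 5 rose (median -0.08), where 10 of the 53 mitotic genes fell and 14 rose and 25.9% of all genes fell. With the GC offset 19 of the 41 G1/S genes fell and 2 rose (median -0.10), beside 19 of the 53 mitotic genes that fell and 7 that rose and 19.9% of all genes that fell. With alpha against GFP 14 of the G1/S genes fell and 6 rose (median -0.03), against 16.3% and 21.2% of all genes, and with beta 13 fell and 5 rose (median -0.03), against 18% and 22.9%. In KO2 against WT 14 rose and 0 fell (median 0.03), against 15.1% and 14.9%. The difference between the lists themselves was not tested.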

How the data were processed

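RNA was sequenced from stranded, polyadenylated libraries, per the labels' protocols. TopHat, Bowtie2, Cufflinks and the build hg19 are named in the submitters' processing notes; the read counter and its strand setting are not given in the sources used here. Raw counts per gene symbol were deposited for 12 libraries, with 2 entries per library that name no gene (9.13% to 10.8% and 1.66% to 1.75% of reads) and were left out. The authors also deposited DESeq2 tables of each form against knockout, which hold the mean of normalized counts, log2 fold changes, their standard errors, a Wald statistic (a score) and p-values; which libraries entered them is not given, and their table for both forms repeats the one for beta and was left aside.

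Counts were fitted with edgeR 4.0.16 in R 4.3.3 (TMM, quasi-likelihood, low-count filter, all 6 groups sharing the spread, Wald standard errors, 8 comparisons), with DESeq2 1.42.0 as an alternative. GC content and length are those of the longest protein-coding transcript in GENCODE 29, and the offset is a lowess trend per library. The procedure was tested on simulated data. The members and all lists were chosen with earlier results of these data known. Named with values in every comparison were 10 genes (CDK1, CCNB1, CCNB2, CDC20, PLK1, AURKA, AURKB, FOXM1, TOP2A, MKI67) and up to 6 of the largest rises and falls; the remaining members are given by role, and up to 3 genes from each other list. Alternatives covered scaling, filter, tool, replicate block, GC and length offsets, a 1.5-fold threshold, the control used and leaving out each library.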

Additional observations from a re-analysis of the deposited data

Results flagged for a closer look

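The knockout derivatives KO5 and KO2 carry the same labelled knockout. By a direct test 13 members (24.5%) were higher and 26 (49.1%) lower in KO5, where 26.9% of all genes were higher and 28.1% lower. The share that was higher thus lies near that of all genes. On the log2 scale, for KO5 over KO2, TOP2A stood at -0.4324, UBE2S at -0.4502, TPX2 at -0.3423, CENPA at -0.2863, CDC25C at -0.236 and CCNA2 at -0.2038. The genes given in every comparison stood at -0.1012 for CCNB1, -0.1556 for CCNB2, -0.1536 for CDC20, -0.1617 for PLK1, -0.1483 for AURKB, -0.1023 for FOXM1 and 0.1079 for CDK1. ECT2 stood at 0.4085, BUB1B at 0.3086, SMC4 at 0.2155, KIF4A at 0.1969, NCAPG at 0.1951 and NCAPH at 0.1867. Over 12122 genes the Spearman correlation of this comparison with GC content was -0.42. With the GC offset 6 members were higher and 28 lower, against 25.1% and 24.9% of all genes. SMC4 then stood at 0.0769, KIF4A at 0.1600, NCAPG at 0.0755 and NCAPH at 0.1658.

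The alpha and beta forms of PRDM1 differed by a direct test in 4 members (7.55%) that were higher and 1 (1.89%) that was lower with alpha. Of all genes 3.45% were higher and 2.79% lower, so that the share that was lower lies near that of all genes. For alpha over beta, KIF18A stood at 0.2299, AURKB at 0.1428, NCAPD2 at 0.1426, HMGB2 at 0.0941 and CKS2 at -0.1109 on the log2 scale. HMGB2 (0.0863) and CKS2 (-0.0948) did not pass with the GC offset, and DESeq2's Wald test gave 1 member higher and 0 lower. Most of these calls did not hold when single libraries were left out, as given above.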

How the results depend on the processing

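With 2 libraries a group the spread itself is poorly known, and most differences are small; the lowest count of any member was 190 reads. Beyond 1.5-fold the members higher or lower were 0 in every comparison but beta against GFP, with 1 lower and 0 higher. With DESeq2's Wald test 3 members were higher with alpha and 3 with beta over GFP, 1 was higher and 0 lower for alpha over beta, 2 were lower in KO2 and 6 lower in KO5 than in WT. With a length offset 3 were higher with alpha and 2 with beta, 0 lower for alpha over beta, 4 higher in overexpression than in knockout, and medians were -0.1239 for beta over GFP and -0.0578 for KO5 over KO2, with CKS1B there at 0.0171. With only the groups compared 3 were higher with alpha and 3 with beta, and the beta median was -0.1179. With WT as the control 10 were higher with alpha and 9 with beta, the beta median was -0.0653, and members changed sign: with alpha CDC20 (-0.0516), CDK1 (0.0861), KIF20B (0.105) and SMC4 (0.0104), with beta CDC20 (-0.1206), CENPF (0.0383), KIF20B (0.1283) and UBE2S (-0.1564). With total gene counts as scaling, which moved the median of all genes by at most 0.0381, the median was 0.0206 for KO2, -0.0157 for KO5 over WT and -0.0993 for overexpression over knockout. The authors' tables had 15 and 18 lower and 2 and 1 higher.

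With the GC offset, each value followed by that with the replicate block added, GFP over WT had 0 and 0 higher, 0 and 0 lower and a median of -0.0117 and -0.0116, KO5 over WT 7 and 7 higher, 19 and 19 lower and a median of -0.0517 and -0.0518, KO5 over KO2 6 and 6 higher, and alpha over beta 0 and 0 lower. Signs then changed for GFP over WT in MAD2L1 (-0.0044 and -0.0041) and SMC2 (-0.0128 and -0.0130). For KO5 over KO2 they changed in ANLN (-0.0721 and -0.0720), CDK1 (-0.0338 and -0.0337), CKS2 (-0.0117 and -0.0116), KIF14 (-0.1108 and -0.1115), NUF2 (-0.0037 and -0.0048) and SMC2 (-0.0146 and -0.0144). For KO5 over WT they changed in ASPM (-0.0108 and -0.0120), CENPE (-0.1182 and -0.1185), DLGAP5 (-0.0910 and -0.0918), KIF11 (-0.0991 and -0.0988), KIF14 (-0.1020 and -0.1008), KIF18A (-0.1375 and -0.1382), KIF20B (-0.1267 and -0.1267), MAD2L1 (-0.0761 and -0.0758), NCAPG (-0.0027 and -0.0026) and PLK1 (0.0026 and 0.0021). The cause was not tested in any of these cases.

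The replicate numbers share only a number, since deviations of same-numbered libraries correlated between -0.0655 and 0.0564 over 15 pairs of groups. The replicate block alone kept every count within 1.5 times and changed 3 members' calls: HMGB2 for alpha over beta (0.0944, adjusted p = 0.0529 by edgeR) and NUSAP1 for beta over GFP (-0.0848, adjusted p = 0.0516) did not pass, and NUF2 for GFP over WT (0.1184, adjusted p = 0.0455) did.

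Leaving out each library in turn, alpha over GFP had 2 to 6 higher, 17 to 24 lower and a median of -0.0963 to -0.0830, with 3 higher without the first alpha library and 2 without the second GFP library. Beta over GFP had 2 to 4 higher, 24 to 29 lower and a median of -0.1144 to -0.0883, with 3 higher without either beta library and 2 without the second GFP library. Alpha over beta had 1 higher each time, 0 to 1 lower and a median of 0.0129 to 0.0341. KO2 over WT had 15 to 20 higher, 2 to 4 lower (2 without the first KO2 or the first WT library) and a median of 0.0623 to 0.0699. KO5 over WT had 12 to 15 higher, 6 to 9 lower (6 without either KO5 library or the first WT library) and a median of -0.0043 (without the second WT library) to 0.0284. KO5 over KO2 had 8 (without the second KO5 library) to 13 higher, 20 to 23 lower and a median of -0.0678 to -0.0631. Overexpression over knockout had 4 (without the first KO2 library) to 6 higher, 33 to 36 lower and a median of -0.1421 to -0.1183. GFP over WT had 3 to 8 higher (3 without the second WT library), 2 to 7 lower (2 without the second WT library) and a median of 0.0177 (without the second GFP library) to 0.0605 (without the first). No member's fold change that passed changed sign.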
